A study of Mus musculus with 2 samples.

Results

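The genes examined are 40 DNA replication and G1/S genes, taken by name from a list and found as 40 of the 55536 mouse genes in the deposited tables. They comprise the replicative helicase and its loaders, the polymerases and primase, the sliding clamp and its loader, the single-strand binding complex, chromatin factors that act at the fork, enzymes that make deoxynucleotides, and cyclin and E2F genes of the G1/S transition. Their levels were read in macrophages grown from the bone marrow of C57BL/6J mice, as primary cells, and exposed for 120 minutes to lipid A at 100 ng/ml before polyadenylated RNA was sequenced from 1 µg of RNA. The free-text label names lipid A, the part of bacterial lipopolysaccharide that the receptor Tlr4 senses, whereas the treatment and source labels name lipoprotein A, a protein, so the stimulus is not settled by the labels. The series has 1 group with 2 libraries, replicates 1 and 2. Both libraries list a single donor entry, so it is not known whether they came from separate animals, and sex and age were not recorded. No untreated library was analysed here, so every value is a level in stimulated cells and none is a response. With 1 library on each side, a ratio of replicate 2 over replicate 1 rests on those libraries only, so no p-value accompanies it.

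The gene tables held 33272581 and 50266403 estimated counts in replicates 1 and 2, and the most that a gene with 0 counts could hold, taken as 3 counts, is 0.0902 and 0.0597 CPM, counts scaled to library size. TPM, the abundance scaled to transcript length as well, is used for levels, and CPM with TMM library factors is used for ratios. The reads carry no molecular identifiers, so limits and intervals describe counting error alone. The 8 macrophage markers, Csf1r, Adgre1, Cd68 and Lyz2 among them, were all at 1 TPM or more in both libraries, so the markers of the labelled cell type were present. Nuclear rRNA genes took 6.82% and 10.5% of TPM in replicates 1 and 2, and mitochondrial genes 7.12% and 5.64%. Over 12178 genes the coefficient of variation between the libraries was 21.5%, which corresponds to an SD of 0.44 for the log2 ratio of a gene.

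In G1 the origin recognition complex, Cdc6 and Cdt1 load the Mcm2 to Mcm7 helicase onto DNA, and at the start of S phase Cdc45 and the GINS complex join it to form the active helicase. Polymerase alpha and primase start each strand, the clamp loader RFC places the ring-shaped clamp PCNA on the primed DNA, and PCNA holds the replicative polymerases, the flap nuclease Fen1 and the ligase Lig1. Many of these genes are known targets of E2F factors, which cyclin E and its kinase release from the retinoblastoma protein. Marrow-derived macrophages can divide in culture when given the growth factor CSF1, and lipopolysaccharide is known to stop that division. PCNA also serves DNA repair outside S phase.

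Promoter windows were available for 32 of the 40 genes and are printed here for 5 genes whose levels set the range described below. The windows run from 250 bases before to 50 bases after the RefSeq start (GRCm38.p6) and were searched on both strands for the E2F words TTTCCCGC, TTTCGCGC, TTTGCCGC and TTTGGCGC. Capitals mark the matches. Pcna, the clamp gene and the most abundant of the 40, lies at chr2:132253131-132253430 on the minus strand and holds no match. Rrm2, the gene furthest apart between the libraries, lies at chr12:24708004-24708303 on the plus strand and holds no match. Mcm6, the highest helicase gene, lies at chr1:128359656-128359955 on the minus strand, with matches that begin 110, 106 and 47 bases before the start, the first pair overlapping. Mcm5, the helicase gene furthest apart between the libraries, lies at chr8:75109259-75109558 on the plus strand, with overlapping matches that begin 153 and 149 bases before the start. Cdt1, a loading factor gene that was higher in replicate 2, lies at chr8:122567765-122568064 on the plus strand, with a match that begins 32 bases after the start.
Pcna: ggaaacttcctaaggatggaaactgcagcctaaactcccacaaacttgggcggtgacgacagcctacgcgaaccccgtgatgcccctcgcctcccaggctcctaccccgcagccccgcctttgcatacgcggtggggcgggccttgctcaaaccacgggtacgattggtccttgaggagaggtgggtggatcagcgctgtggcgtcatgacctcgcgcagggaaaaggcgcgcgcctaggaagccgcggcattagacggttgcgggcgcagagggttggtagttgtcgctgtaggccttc
Rrm2: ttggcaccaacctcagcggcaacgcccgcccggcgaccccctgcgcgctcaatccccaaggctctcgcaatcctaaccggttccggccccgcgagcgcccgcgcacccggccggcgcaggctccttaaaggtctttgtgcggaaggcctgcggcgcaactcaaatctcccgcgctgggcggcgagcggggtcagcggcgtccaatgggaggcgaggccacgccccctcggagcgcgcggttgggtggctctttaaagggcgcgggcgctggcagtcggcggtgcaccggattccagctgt
Mcm6: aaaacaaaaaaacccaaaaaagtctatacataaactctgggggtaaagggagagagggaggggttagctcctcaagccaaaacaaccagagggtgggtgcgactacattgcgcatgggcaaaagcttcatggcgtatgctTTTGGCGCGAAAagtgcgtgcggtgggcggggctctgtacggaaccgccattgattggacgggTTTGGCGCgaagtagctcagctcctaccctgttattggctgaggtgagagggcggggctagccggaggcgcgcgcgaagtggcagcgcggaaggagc
Mcm5: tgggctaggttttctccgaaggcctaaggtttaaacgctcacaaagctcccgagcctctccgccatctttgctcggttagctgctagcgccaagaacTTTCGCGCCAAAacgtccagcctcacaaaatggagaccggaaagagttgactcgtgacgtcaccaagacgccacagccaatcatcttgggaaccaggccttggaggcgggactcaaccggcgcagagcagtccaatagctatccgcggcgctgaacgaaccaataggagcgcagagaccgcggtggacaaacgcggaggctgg
Cdt1: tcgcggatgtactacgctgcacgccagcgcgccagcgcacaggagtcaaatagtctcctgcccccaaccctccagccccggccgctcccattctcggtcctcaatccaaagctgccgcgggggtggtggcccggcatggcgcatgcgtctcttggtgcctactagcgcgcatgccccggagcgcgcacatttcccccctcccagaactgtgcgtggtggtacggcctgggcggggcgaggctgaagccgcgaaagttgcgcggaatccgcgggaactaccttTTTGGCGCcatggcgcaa

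Lig1, Fen1, Mcm7 and Uhrf1 have more than 1 start in the table, and a gene was counted when any of its windows held the letters. An E2F word stood in a window of 11 of the 32 genes, or 34.4%. The same words stood in the windows of 704 of 27025 genes in the RefSeq table (2.60%) and of 395 of 8133 genes whose mean count was at least 50 (4.86%). The 11 genes were the helicase genes Mcm3, Mcm5, Mcm6 and Mcm7, the loading factor genes Cdc6 and Cdt1, and Gins3, Pola1, Lig1, Rfc3 and Uhrf1. The CCAAT box, the letters bound by NF-Y, stood in a window of 21 of the 32 genes (65.6%), against 41.1% of all genes in the table and 42.7% of those whose mean count was at least 50. The CHR words TTTGAA and TTCGAA, known from late cell cycle genes, stood in a window of 6 of the 32 genes (18.8%), against 21.7% and 16.3%. Mcm4, Gins1, Gins2, Gins4, Prim2, Pole, Rfc2 and Ccne2 had no entry. A match is a run of letters and not a binding site, and the absence of one says only that these letters are not in the window. Some windows lie wholly inside the annotated gene. That of E2f1, chr2:154569377-154569676, lies within a gene that runs from 154559407 to 154569892 on the minus strand. The bases before the annotated start of E2f1 were therefore not searched.

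All 40 genes were measured, and most were low. In replicate 1, 38 genes reached 1 TPM or more and the median was 7.92 TPM, and in replicate 2, 33 genes did and the median was 3.83 TPM. The 33 genes at 1 TPM or more in replicate 2 were all at that level in replicate 1 too. At 10 TPM or more in both libraries there were 10 genes, and at 100 TPM or more there was 1, Pcna. Summed over the 40 genes, the level was 645 TPM in replicate 1 and 526 TPM in replicate 2, and without Pcna it was 353 and 249.8 TPM. The order of the genes was similar in the libraries: across the 40 genes, which are not independent replicates, Spearman's rho between the levels was 0.89 and Pearson's r of log2 TPM was 0.91, and 8 of the 10 highest genes were shared.

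**Figure D1:**
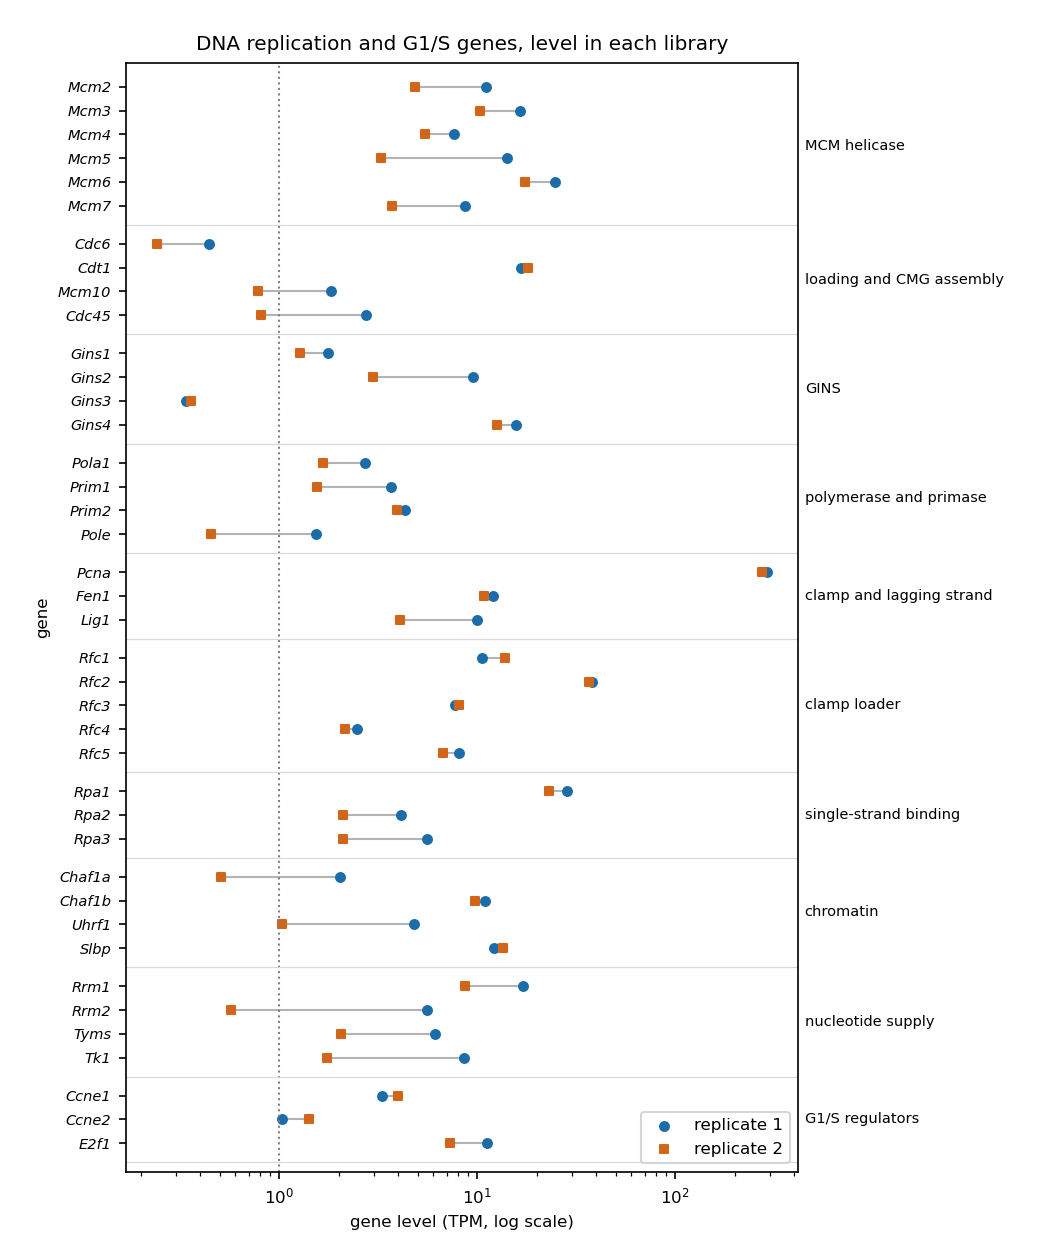
Level of each of the 40 genes in TPM (log axis) in replicate 1 (circles) and replicate 2 (squares), grouped by role, with a dotted line at 1 TPM. Pcna stands alone above 100 TPM in both libraries, and the squares of the nucleotide supply and helicase genes lie to the left of their circles.

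Pcna, whose product forms the sliding clamp, stood at 292 TPM in replicate 1 and 276 TPM in replicate 2, or 284 ± 11.6 TPM (SD, n = 2). The gene, ENSMUSG00000027342.14, lies on chromosome 2 from 132249162 to 132253314 on the minus strand (mm10), and 99.3% and 99.6% of its TPM was in the coding transcript Pcna-201. It ranked 497 and 504 among all genes by TPM, of which 10832 and 10574 were at 1 TPM or more, so it was an abundant mRNA of these cells. The log2 ratio of its CPM between the libraries was 0.05, with a counting interval (95%, Clopper-Pearson) from 0.01 to 0.09. Pcna by itself held 45.3% and 52.5% of the summed TPM of the 40 genes, and its level was 7.73 and 7.49 times that of the next gene, Rfc2.

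Against the helicase, the level of Pcna was 23.2 times the median of Mcm2 to Mcm7 in replicate 1 and 53.7 times in replicate 2 (38.5 ± 21.6, SD, n = 2). Against the median of Pola1, Prim1, Prim2 and Pole it was 91.6 and 172 times (131.7 ± 56.8, SD, n = 2). Pcna itself differed little between the libraries, so these ratios of levels followed the helicase and polymerase medians. On the TPM of protein-coding transcripts alone, a choice made after the data were seen, Pcna stood 26.2 and 53.5 times above the helicase median. On that scale the next highest gene was Mcm6 at 24.55 TPM in replicate 1 and Rpa1 at 19.56 TPM in replicate 2, so that Pcna stood 11.8 and 14.1 times above it. The deposited files hold a copy of Pcna, the pseudogene Pcna-ps2, which was 99.2% identical over 781 bases and took 28.9 and 59.9 counts, or 0.357% and 0.530% of the counts of Pcna.

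The helicase subunit genes were all detected in both libraries and all lower in replicate 2. Their median was 12.6 TPM in replicate 1 and 5.14 TPM in replicate 2. Mcm6 was the highest at 24.8 and 17.4 TPM, followed in both libraries by Mcm3 at 16.5 and 10.3 TPM. Below these the order differed between the libraries: Mcm2 stood at 11.0 and 4.85 TPM, Mcm7 at 8.65 and 3.70 TPM and Mcm4 at 7.62 and 5.42 TPM. Mcm5 (ENSMUSG00000005410.6, chromosome 8, 75109569 to 75128439, plus strand) stood at 14.2 and 3.25 TPM, which made it the third highest subunit gene in replicate 1 and the lowest in replicate 2. The highest subunit level was 3.25 times the lowest in replicate 1 and 5.35 times in replicate 2, although the subunits act together in a single ring. The second place of Mcm3 in replicate 1 depends on non-coding transcripts, as its coding share was 67.5% and 63.7%. On coding transcripts alone, Mcm3 stood at 11.1 TPM in replicate 1, below Mcm5 at 14.2 TPM. The second quantification gave the same order there, with Mcm3 at 10.2 and Mcm5 at 12.7 TPM.

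Among the loading and assembly factors, Cdt1, which delivers the helicase to origins, was the only gene at 1 TPM or more in both libraries, at 16.6 and 18.1 TPM. Cdc6, its partner in loading, stood at 0.44 and 0.24 TPM from 41 and 35 counts. Mcm10 and Cdc45, which act when the helicase is switched on, stood at 1.82 and 0.78 TPM and at 2.73 and 0.81 TPM. The GINS genes, whose products complete the active helicase, spanned a wide range: Gins4 was at 15.7 and 12.6 TPM, Gins2 at 9.48 and 2.97 TPM, Gins1 at 1.77 and 1.28 TPM, and Gins3 at 0.34 and 0.36 TPM from 17 and 27 counts. GINS holds its subunits in equal numbers, and their mRNA levels per length lay far apart in each library.

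The polymerase and primase genes were low, with medians of 3.19 and 1.61 TPM. Prim2, the large primase subunit, was at 4.32 and 3.95 TPM, Prim1, the catalytic subunit, at 3.68 and 1.55 TPM, and Pola1, the catalytic subunit of polymerase alpha, at 2.70 and 1.66 TPM. Pole, the catalytic subunit of the leading-strand polymerase, was the lowest at 1.54 and 0.45 TPM, with 156 and 55 counts. On the lagging strand, Fen1, which removes flaps, stood at 12.1 and 10.8 TPM and Lig1, which seals nicks, at 10 and 4.06 TPM.

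The clamp loader genes were all at 1 TPM or more in both libraries, and none was 2-fold apart between them. Rfc1, the large subunit, stood at 10.5 and 13.9 TPM, Rfc2 at 37.8 and 36.8 TPM, Rfc3 at 7.70 and 8.08 TPM, Rfc4 at 2.46 and 2.15 TPM and Rfc5 at 8.13 and 6.68 TPM. Rfc2 was the second highest of the 40 genes, but only 22.6% and 19.9% of its TPM lay in the coding transcript, as described below. The coding transcript of Rfc3 stood at 7.31 and 4.94 TPM, and the rest of its level was retained-intron RNA. Of the single-strand binding genes, Rpa1 stood at 28.4 and 23.1 TPM, Rpa2 at 4.14 and 2.11 TPM and Rpa3 at 5.60 and 2.10 TPM.

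Chromatin factors formed a higher and a lower pair. Chaf1b, the middle subunit of the histone chaperone CAF-1, stood at 10.9 and 9.72 TPM and Slbp, which binds histone mRNA, at 12.1 and 13.5 TPM. Chaf1a, the large CAF-1 subunit, stood at 2.03 and 0.51 TPM and Uhrf1, which brings the maintenance DNA methyltransferase to the fork, at 4.78 and 1.03 TPM. The enzymes of deoxynucleotide supply were all lower in replicate 2. Rrm1, the large subunit of ribonucleotide reductase, stood at 16.9 and 8.66 TPM, and Rrm2, its small subunit (ENSMUSG00000020649.11, chromosome 12, 24708241 to 24714146, plus strand), at 5.56 and 0.57 TPM from 227 and 36 counts. Tyms, thymidylate synthase, was at 6.15 and 2.05 TPM and Tk1, thymidine kinase, at 8.53 and 1.74 TPM. E2f1, the activator factor, stood at 11.3 and 7.26 TPM, and the E-type cyclin genes Ccne1 and Ccne2 stood at 3.31 and 3.98 TPM and at 1.03 and 1.42 TPM.

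The transcript tables show which of these levels came from coding RNA. The leading transcript of a gene held a median of 81.2% of its TPM, more than 90% in 16 genes and less than 50% in 6, and it was coding in 38 of 40. In Rfc2 the leading transcript was Rfc2-204, a short retained-intron RNA with 46.6% and 43.1% of the TPM of the gene, and the coding Rfc2-201 stood at 8.55 and 7.31 TPM. In Tyms it was Tyms-205, annotated as a target of nonsense-mediated decay, with 52.7% and 46.9%, and coding transcripts together reached 1.83 and 0.80 TPM. The coding share was under 50% in both libraries in these 2 genes and over 90% in both in 27. Gins2 had a coding share of 54.9% in replicate 1 and 93.9% in replicate 2, and the non-coding Gins2-202, 473 bases long, was listed at 4.18 and 0.18 TPM. On these levels Gins2 was 3.19-fold apart between the libraries in TPM and 1.77-fold apart in TMM-normalised CPM. The leading transcript was the same in both libraries in 37 genes, with Cdc45, Pole and Lig1 as the exceptions, and the same in the second quantification in 38, with Cdc6 and Gins3 as the exceptions.

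**Figure D2:**
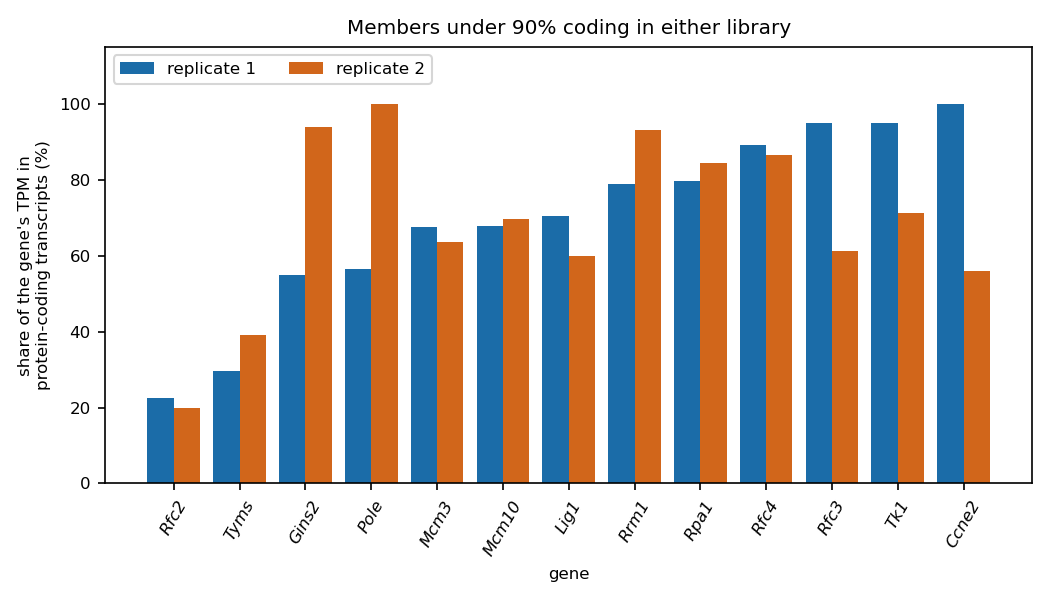
Share of the gene's TPM in protein-coding transcripts (percent) in replicate 1 and replicate 2, for the 13 genes under 90% in either library. Rfc2 and Tyms lie under 50% in both libraries, and Gins2, Pole, Rfc3, Tk1 and Ccne2 differ most between the libraries.

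Replicate 2 was next set over replicate 1, gene by gene. Of the 40 genes, 36 reached a mean count of 50 and were compared, and Cdc6, Gins1, Gins3 and Rpa3 did not reach it. In replicate 2, 30 of the 36 were lower (83.3%), against 46.5% of the 10443 genes compared, and 6 were higher. The median log2 ratio of CPM was -0.54 over the 36 genes, -0.57 without Pcna, and 0.03 over all genes compared. By 2-fold or more, 13 of the 36 (36.1%) were lower in replicate 2, where 2.15% of all genes compared were, and 0 of the 36 were higher, where 1.85% of all genes were. Genes with few counts pass 2-fold more often, so the range of mean counts from 50 to 500 was also taken alone, a choice made after the data were seen. There 11 of 22 were lower by 2-fold or more, against 4.65% of all genes in the range, and 0 were higher, against 3% of all genes. With a mean count of at least 200 asked for, 23 were compared and 5 were lower by 2-fold or more, against 0.875% of all genes at that minimum. In bulk RNA, fewer cells with these transcripts and less of them per cell cannot be told apart.

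**Figure D3:**
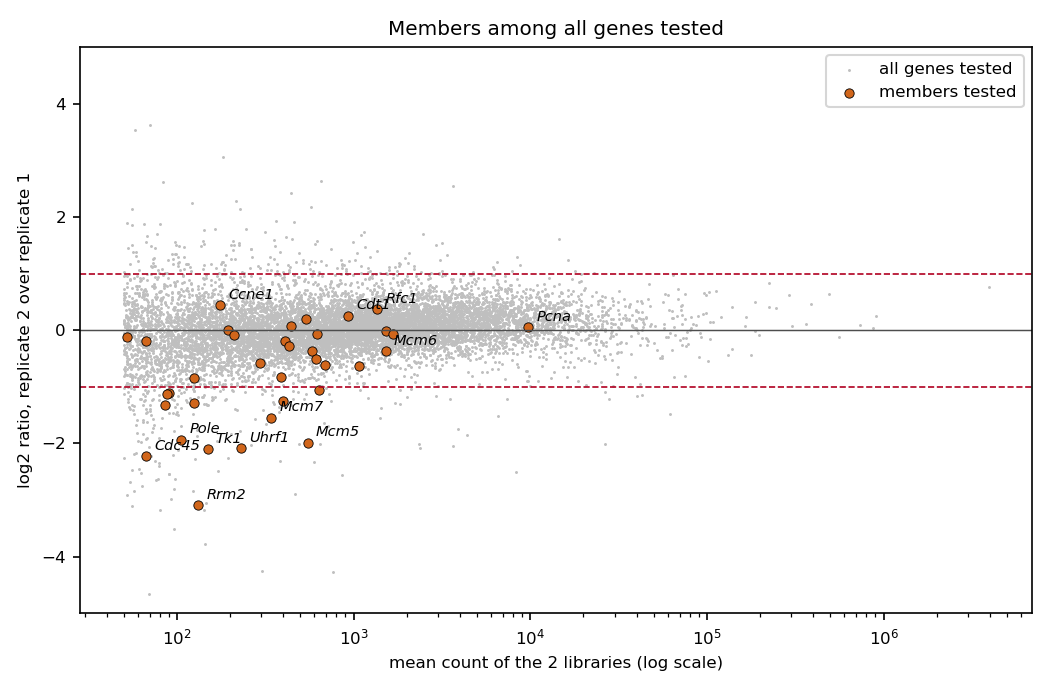
Log2 ratio of TMM-normalised CPM, replicate 2 over replicate 1, against the mean count (log axis) for the 10443 genes compared (grey) and the 36 replication and G1/S genes among them (orange), with dashed lines at 2-fold. Of the orange points 13 lie below the lower dashed line and 0 above the upper one, and Pcna lies near 0 at the highest count.

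The 13 genes were Mcm2, Mcm5 and Mcm7 of the helicase, the activation factors Mcm10 and Cdc45, Prim1 and Pole, Lig1, Chaf1a and Uhrf1, and Rrm2, Tyms and Tk1. Each was also lower by 2-fold or more in the second quantification of the same reads, and the smallest mean count among them was 67. On the log2(TPM + 1) scale, which understates the ratio of low genes, 11 genes were lower by 2-fold or more: Mcm10 at -0.66, Prim1 at -0.88 and Pole at -0.81 were not among them, Gins2 at -1.40 was, and Cdc45 was at -1.04. Rrm2 was the furthest apart, with a log2 ratio of CPM of -3.09 (counting interval -3.64 to -2.57), which is 8.49-fold. Cdc45 followed at -2.22, Tk1 at -2.11, Uhrf1 at -2.08 and Mcm5 at -1.99 (interval -2.19 to -1.79). Pole was at -1.93 and Mcm7 at -1.54. The remaining 6 of the 13 lay between -1.33 for Tyms and -1.06 for Mcm2. Of all 40 genes, the counting interval lay below 0 in 23, above 0 in 5 and across 0 in 12.

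By role, the ratios differed in size. Helicase genes were lower in 6 of 6 cases, with a median log2 ratio of -0.84, yet Mcm4 and Mcm6 were both at -0.36 and Mcm3 at -0.62, so that the subunits did not share a ratio. Nucleotide supply genes had a median of -1.72, with 4 of 4 lower, Rrm1 the nearest to 0 at -0.63. Polymerase and primase genes had a median of -0.84 and 4 of 4 lower, from -1.93 for Pole through -1.12 for Prim1 and -0.57 for Pola1 to -0.0009 for Prim2. Clamp loader genes had a median of -0.09, none was 2-fold apart and the range was from -0.27 for Rfc5 to 0.37 for Rfc1. Rpa1 was at -0.07 and Rpa2 at -0.85, Fen1 at -0.07 and Lig1 at -1.25, Chaf1b at 0.07 and Chaf1a at -1.29, so that partners in a complex or step lay apart.

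The 6 genes that were higher in replicate 2 were Ccne1 at 0.44, Rfc1 at 0.37, Cdt1 at 0.26, Slbp at 0.20, Chaf1b at 0.07 and Pcna at 0.05, as log2 ratios of CPM. All were within 1.5-fold, as were 19 of the 36 in either direction. Their direction depends on the scale in some cases: in TPM, Pcna and Chaf1b were lower in replicate 2. Ccne2 was at -0.19 in CPM and at 0.25 on the log2(TPM + 1) scale. E2f1 was at -0.50 in CPM, with a counting interval from -0.67 to -0.34.

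**Figure D4:**
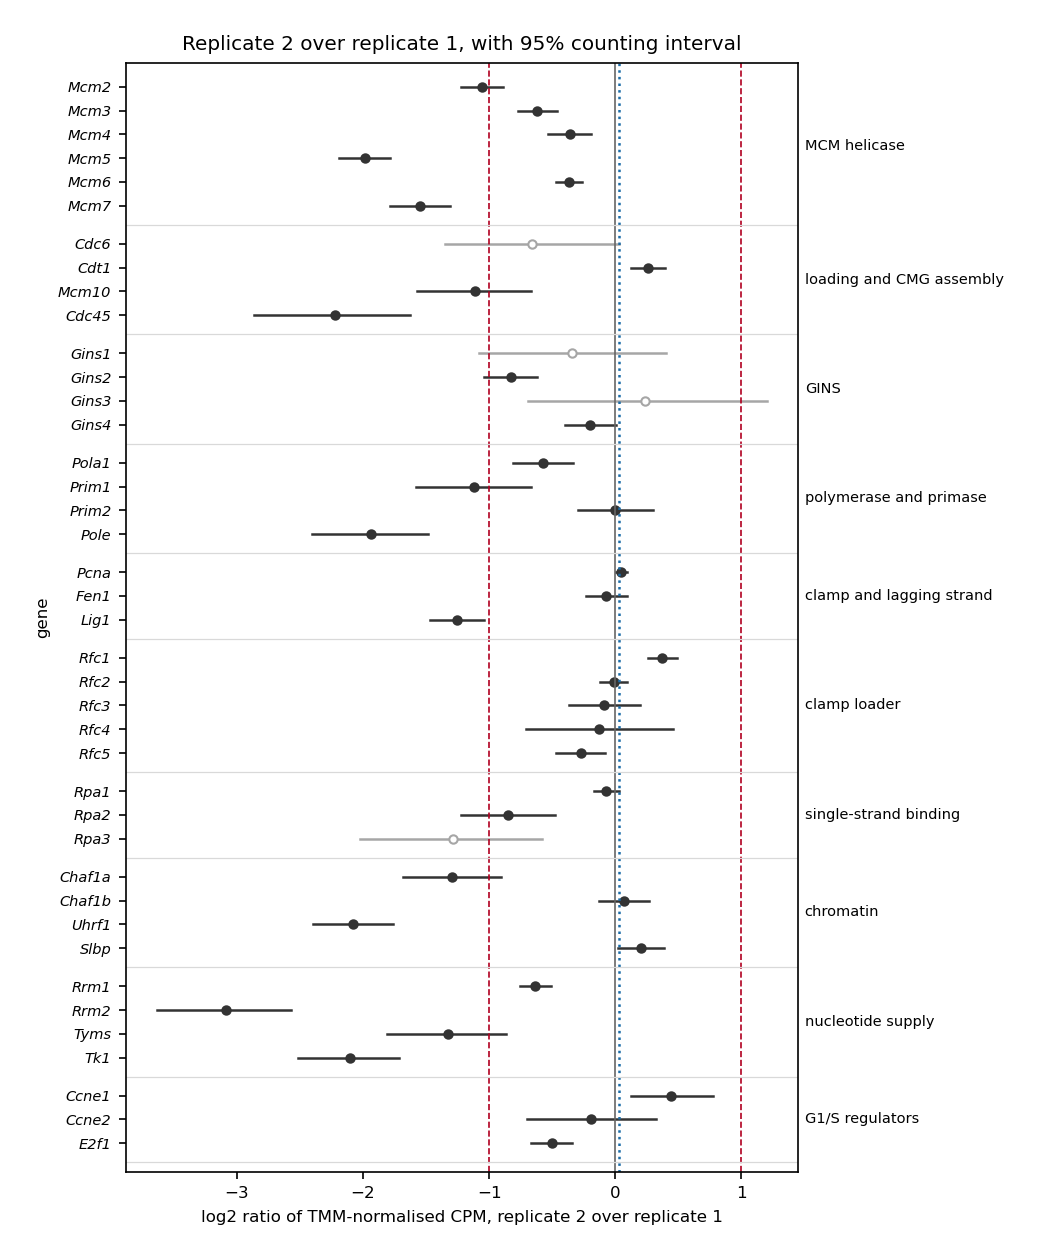
Log2 ratio of TMM-normalised CPM, replicate 2 over replicate 1, for each of the 40 genes by role, with the 95% counting interval as a bar. Open grey points have a mean count under 50, the blue dotted line is the median of all genes compared (0.03) and dashed lines mark 2-fold. Intervals are narrow for Pcna and Mcm6 and wide for Gins3 and Rfc4, and the points furthest to the left are Rrm2, Cdc45, Tk1, Uhrf1 and Mcm5.

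Ratios of genes with and without an E2F word in the promoter window overlapped. The 9 compared genes with a word had a median log2 ratio of -0.62, from -2.08 for Uhrf1 to 0.26 for Cdt1, and 4 of them (Mcm5, Mcm7, Lig1 and Uhrf1) were lower by 2-fold or more. The 20 compared genes whose window held none had a median of -0.57, from -3.09 for Rrm2 to 0.44 for Ccne1, and 8 were lower by 2-fold or more. The printed windows show the same spread: Mcm5 and Cdt1 both hold a word and lay far apart, and so did Rrm2 and Pcna, which hold none. E2f1 is among the 20, although its window lies inside the gene. No test was made of this split.

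Other genes of replication, in lists chosen by function, were read the same way. Of 20 further genes of origin licensing and firing, 15 were compared, 10 were lower and 5 higher in replicate 2, 2 lower by 2-fold or more, with a median log2 ratio of -0.12. The origin recognition subunit gene Orc6 was the furthest at -1.58, while Orc4 stood at -0.57, Orc3 at 0.25 and the helicase-binding Mcmbp at 0.22. Of 18 further polymerase and replisome genes, 13 were compared, 9 were lower, 1 by 2-fold or more, and the median was -0.43. That gene was Top2a, the topoisomerase of dividing cells, at -1.70, and Top1, the most abundant of the list, stood at 151 and 98.5 TPM and at -0.48. Of 9 chromatin partners, all compared, 7 were lower, 2 by 2-fold or more, with a median of -0.16. The histone-binding Rbbp4 and Rbbp7 were at -0.03 and -0.16, the maintenance methyltransferase gene Dnmt1 at 0.19 and the chromatin remodeller gene Hells at -1.46.

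The wider nucleotide supply list held 17 genes, all compared, of which 14 were lower and 3 higher, with a median log2 ratio of -0.22. Its most abundant genes were Cmpk2, a nucleotide kinase gene induced by interferon, at 520 and 646 TPM, Samhd1, which breaks deoxynucleotides down, at 281 and 433 TPM, and Nme2 at 240 and 199 TPM. These 3 stood well above Rrm1, Rrm2, Tyms and Tk1 in TPM, and Cmpk2 and Samhd1 were higher in replicate 2 by 0.43 and 0.72 in log2 CPM. Of 28 G1/S regulators, 24 were compared, 10 were lower and 14 higher, 1 lower and 2 higher by 2-fold or more, with a median of 0.03. Cdkn1a, the gene of the cyclin kinase inhibitor p21 that also binds PCNA, stood at 1313 and 1232 TPM with a log2 ratio of 0.03. The inhibitor gene Cdkn1c stood at 31.7 and 73.3 TPM with a ratio of 1.28, and Ccnd1, a D-type cyclin, at a ratio of -1.29.

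**Figure D5:**
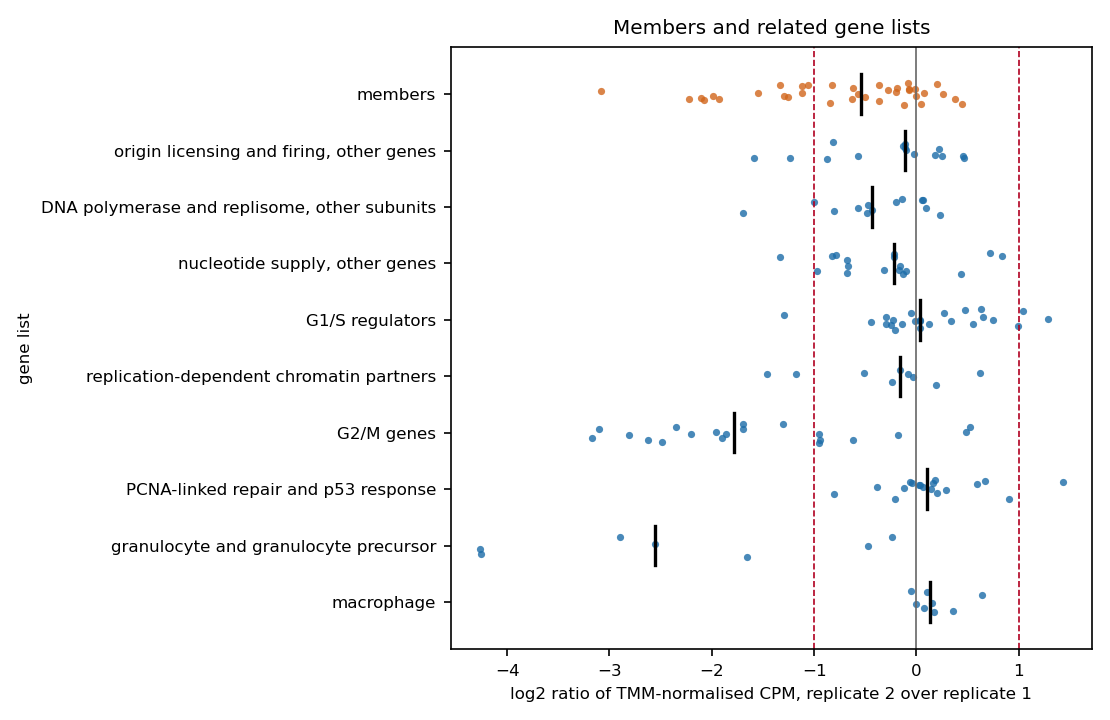
Log2 ratio of TMM-normalised CPM, replicate 2 over replicate 1, for the 36 replication and G1/S genes (orange) and for the compared genes of related lists and of granulocyte and macrophage markers (blue). Each point is a gene, the black bar is the median of the list and dashed lines mark 2-fold. The G2/M and granulocyte lists have medians of -1.78 and -2.56, and the macrophage list 0.13.

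Genes of G2 and mitosis were also lower in replicate 2. Of 22 such genes 20 were compared, 18 were lower, 13 of them by 2-fold or more, and the median log2 ratio was -1.78. Top2a is in this list as well as in the replisome list. Ccnb2, a mitotic cyclin, was the furthest at -3.17, and Cdk1, the mitotic kinase, stood at 29.6 and 15.6 TPM with a ratio of -0.95. The proliferation marker Mki67 and the centromeric histone gene Cenpa were the 2 that were higher, at 33.6 and 41.6 TPM and at 46.6 and 61.0 TPM, with ratios of 0.49 and 0.52. With a mean count of at least 200 asked for, the median of this list was -0.56.

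Granulocyte, megakaryocyte and erythroid markers were lower in replicate 2 where compared. Of the progenitor markers only Kit and Gfi1 were compared, and both were higher. The others had too few counts to be compared and went both ways. Flt3 (41 and 11 counts), Cd34 (6 and 3) and Myb (11 and 6) were lower in replicate 2, and Meis1 (27 and 41) was higher. The summed level of 14 granulocyte and precursor markers was 608 TPM in replicate 1 and 119 TPM in replicate 2. Of these 14, 7 were at 1 TPM or more in both libraries, 7 were compared, all 7 were lower and 5 by 2-fold or more. Their log2 ratios ran from -4.27 for the granule gene Ngp to -0.24 for Csf3r. The summed level of 6 megakaryocyte and platelet markers was 933 and 238 TPM, nearly all from the platelet chemokine gene Pf4 at 916 and 236 TPM, with 3 compared and all 3 lower by 2-fold or more. The erythroid list summed to 557 and 232 TPM, nearly all from the transferrin receptor gene Tfrc at 553 and 230 TPM. Only 2 of its genes were compared, Tfrc at -1.14 and Epor at -1.17, and Hbb-bs and Alas2 were at 0 in both libraries. The 6 progenitor markers summed to 2.50 and 4.32 TPM with Kit at 57 and 373 counts, the 6 T cell markers to 0.72 and 0 TPM with Cd8a and Trac at 0, and the 7 B cell markers to 2.76 and 1.49 TPM. Macrophage markers summed to 18323 and 23917 TPM with a median log2 ratio of 0.13. The part of these cells in the lower replication gene levels of replicate 2 was not tested.

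Reads of some of these genes are shared with other genes. Of the 40, 19 overlap an exon of another gene or share a near-identical stretch with one (95% identity over at least 300 bases). Such a stretch is called a copy here, whether or not the whole gene is copied. Among the 19 are 9 of the 13 that were lower by 2-fold or more. Tyms is included only through stretches of at most 361 bases shared with several other genes. Over the 21 genes with neither an overlap nor a copy, 18 were compared and 14 were lower, where 46.5% of all genes compared were. By 2-fold or more, 4 were lower, namely Mcm2, Mcm5, Mcm10 and Prim1, where 2.15% of all genes compared were. The median log2 ratio of the 18 was -0.43. Most overlaps are with a gene on the opposite strand, and the sources used here do not say whether counting used strand, so reads of such pairs cannot be told apart. The longest overlaps, as a share of the gene's exon bases, were Fen1 with Gm10143 at 78.8%, Gins2 with Gse1 at 67.3% and Chaf1a with Ubxn6 at 52.5%, followed by Ccne2 with Ints8 at 17.4%, Rfc2 with Lat2 at 15.1%, Rfc4 with Eif4a2 at 12.7% and Rfc5 with Wsb2 at 10.7%. Gm10143 had 17.6 and 0 counts, whereas Lat2, next to Rfc2, had 4382 and 5817, more than Rfc2 itself at 1300 and 1733. The authors' posterior standard deviation of a gene's count, which covers reads that fit more than 1 transcript, was at most 2.43% of the count, in Chaf1a, and over 1% in 5 of the 40 genes. Mcm2, Mcm5 and Pola1 share no exon with another gene, whereas the levels of Rfc2, Gins2 and Chaf1a are uncertain to the extent of these overlaps.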

How the data were processed

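Polyadenylated RNA of stimulated macrophages was sequenced in 2 libraries, placed by their labels in 1 group and numbered as replicates. Per the file headers, the gene tables hold expected counts, TPM, posterior mean TPM and a posterior standard deviation of the count under RSEM column names, and the deposited transcript tables also hold, as a percent, each transcript's share of its gene's TPM. A second deposited transcript table, under kallisto column names, holds estimated counts and TPM and was summed by gene. Per the deposited descriptions, assembly mm10 and GENCODE M21 were used. Program versions, strand use and any extraction or sequencing batch are not given in the sources used here.

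Estimated counts were rounded to whole numbers. The other 26345 entries (spike-in, tRNA and control), with 0.141% and 0.134% of counts, were left out. Ratios are log2 TMM-normalised CPM (edgeR 4.0.16, R 4.3.3) for genes whose mean count was at least 50, and 2-fold is a threshold of size, not a test. The spread between libraries is the square root of edgeR's common dispersion with an intercept alone, over genes that reached 10 counts in both. Counting intervals are exact Clopper-Pearson intervals at 95% on the split of a gene's counts. Near-identical copies were found with blastn 2.17.0. Promoter windows came from RefSeq (GRCm38.p6). Python 3.11.15 with pandas 2.3.3, numpy 2.4.6, scipy 1.17.1 and matplotlib 3.10.9 was used for the rest, and the ratio step was tested on simulated data.

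The 40 genes and the other lists were chosen with earlier results of these data known. All 40 may be named. Of each other list the text names the 3 genes highest in mean TPM and the gene furthest from a log2 ratio of 0 among those compared, and 1 such gene is not reported here. Hbb-bs, Alas2, Cd8a and Trac, named as markers at 0, and Csf1r, Flt3, Cd34 and Myb fall outside this rule and were named after their values were seen. Alternatives were DESeq2 1.42.0 size factors, total-count CPM, TPM with other pseudocounts, other minimums, the second quantification, posterior mean TPM and each replicate by itself.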

Additional observations from a re-analysis of the deposited data

How the results depend on the processing

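Over the settings tried, which changed library scaling, the count minimum, pseudocount, quantification and genes used, 0 of the replication and G1/S genes were higher by 2-fold or more in replicate 2, and their median log2 ratio lay between -0.70 with total-count CPM and -0.36 at a mean count of at least 200. Total-count CPM moved the median of all genes from 0.03 to -0.14, and TPM with a pseudocount of 1 or 0.1 moved it to -0.09 or -0.10. Relative to all genes, the median was -0.57 with TMM and with total-count CPM. These scalings shift every gene by the same amount, so that value could not differ between them. At a mean count of at least 200, 23 genes were compared, 18 were lower and 5 by 2-fold or more, against 0.875% of all genes at that minimum. Over genes with no shared exon or near-identical copy, 18 were compared, 14 were lower and 4 by 2-fold or more, against 2.15% of all genes compared. That alternative and the one on coding transcripts alone were added after the data were seen. In this setting and at the higher minimum fewer genes were compared. Asking for 5 TPM in place of 1 left 16 genes in both libraries.

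With each replicate left out in turn, the genes at 1 TPM or more ranged from 33 to 38, the median level from 3.83 to 7.92 TPM, Pcna over the helicase median from 23.2 to 53.7 and Pcna over the polymerase and primase median from 91.6 to 172. A ratio between libraries needs both, so it has no such value. No paired analysis was possible because the labels give only 1 group. Of single-gene ratios under the alternatives, 524 moved by less than the SD of 0.44 and 19 by more. The 19 were all in TPM with a pseudocount. Other library factors shift every gene by the same small amount, and other minimums or gene subsets leave a gene's ratio as it is. Many of the 524 therefore could not move, and their number is no measure of stability. Depth limits Cdc6, Gins1, Gins3 and Rpa3, whose mean counts were under 50.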

Other observations

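PCNA also acts in DNA repair, and several repair and stress genes are known p53 targets. Of 18 genes of PCNA-linked repair and the p53 response, 17 were at 1 TPM or more in both libraries and all 18 could be compared: 6 were lower in replicate 2 and 12 higher, 0 lower and 1 higher by 2-fold or more. Their median log2 ratio of CPM was 0.10, beside -0.54 for the replication and G1/S genes, and the difference was not tested. The stress gene Gadd45b was the most abundant at 461 and 434 TPM, followed by Mdm2, the p53 ubiquitin ligase gene, at 111 and 78.2 TPM and the p53 target Ccng1 at 56.1 and 57.2 TPM. Gadd45g was the furthest apart, at 6.42 and 15.95 TPM with a log2 ratio of 1.43. In level, Pcna at 292 and 276 TPM lay between Gadd45b and Mdm2 in both libraries.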
